A study of Mus musculus with 26 samples.

Results

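RNA that an antibody against IMP2 recovered from brown fat of Imp2 knockout mice was compared with total RNA of the same genotype. The comparison takes every library that the labels place in either group, 2 knockout immunoprecipitates (libraries 23 and 24) and 2 knockout total RNA libraries (18 and 19), which are 4 of the 26 samples of the series and 4 of its 12 brown fat samples. All 4 came from male Imp2-/- mice of 10 weeks on the C57Bl/6J background, bred from heterozygous parents, fed normal chow and kept at 4 °C overnight before the tissue was taken. The wild-type groups used beside them are Imp2+/+ littermates of the same sex, age, diet and cold exposure, given as 2 total RNA libraries (16 and 17) and 2 IMP2 immunoprecipitates (21 and 22) in the same table. A separate table holds 1 wild-type immunoprecipitate made with IgG (26), 2 wild-type total RNA libraries (15 and 20) and 1 further wild-type IMP2 immunoprecipitate (25). The labels do not say which animal each library came from or whether animals were pooled, and the p-values therefore rest on the spread between libraries, which may be technical.

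IMP2, the product of Igf2bp2, belongs to a family of RNA-binding proteins that attach to mRNAs and affect their transport, stability and translation. In RNA immunoprecipitation an antibody pulls the protein out of a tissue extract together with bound RNA, and what the same antibody recovers from tissue without the protein is background. Brown fat burns fatty acids, sugars and amino acids in its many mitochondria and releases heat through the uncoupling protein Ucp1, which cold switches on.

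The knockout table gave 1189 genes, each represented by its most counted transcript. The summed counts of these genes were 2489245 and 4916160 in the total RNA libraries and 2382815 and 1890095 in the immunoprecipitates, and no transcript had fewer than 34 counts in any of the 4. Values below are CPM, counts scaled to the total over the listed genes with the TMM (trimmed mean) method, so every ratio is relative to the other listed genes and gives no amount of RNA recovered. The table lists only part of the transcriptome. Igf2bp2 has no row in it, and the deleted mRNA gives no check of the genotype here. In the separate wild-type table it had 8 to 20 counts per library. Brown fat was recognisable by 9 listed genes of 16 brown adipocyte markers, among them Ucp1 and the fatty acid carrier Fabp4. Of 28 macrophage markers 0 were listed. Genes that are not listed may still be expressed, since every listed transcript had at least 101 counts in each wild-type library. In these bulk samples, fewer cells of a type and less RNA per cell cannot be told apart.

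Without IMP2, the antibody still gave a pool of mRNA that differed from total RNA. Higher recovery passed the test for 126 of 1189 genes (10.6% of those tested) and lower recovery for 187 (15.7%), at an adjusted p under 0.05 in the edgeR quasi-likelihood test with Benjamini-Hochberg adjustment. The remaining 876 were not called. Both libraries of one kind lay above both of the other for every called gene, as they did for 388 of all genes in the higher direction (32.6%) and 403 in the lower (33.9%). Ratios of called genes were mostly modest, with a median log2 of 0.63 among the higher and -0.77 among the lower, against -0.01 over all genes. A fitted change of at least 2-fold was reached by 12 of the called genes in the higher direction and by 53 in the lower. Upper-quartile scaling, which moves the median of all genes to 0.16, turned the split to 273 higher and 130 lower, and library size alone gave 246 and 145. Leaving out 1 library at a time left 47, 81, 74 and 48 higher genes and 99, 155, 110 and 87 lower ones without libraries 18, 19, 23 and 24.

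**Figure D1:**
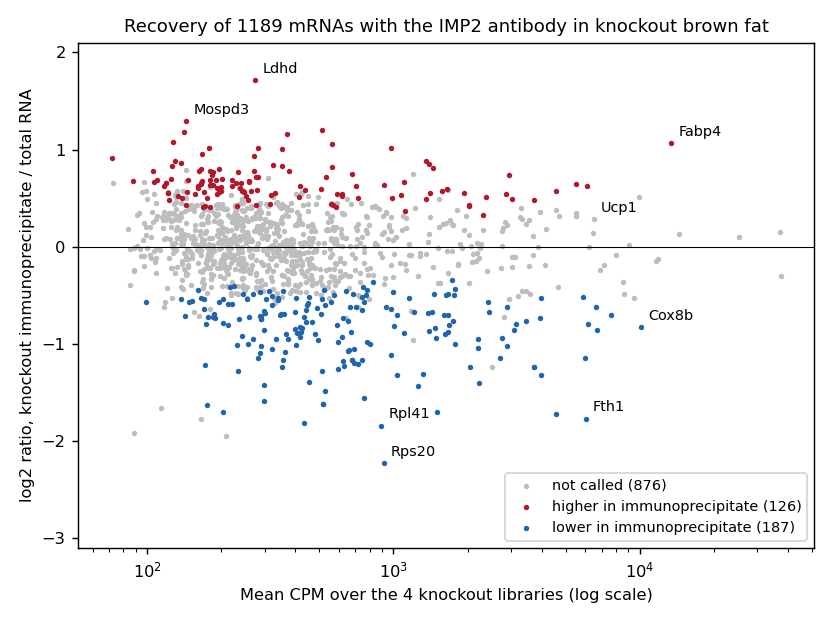
Each point is 1 of 1189 genes, with its mean CPM over the 4 knockout libraries on a log axis and its fitted log2 ratio of knockout immunoprecipitate to knockout total RNA on the vertical axis. Red points mark the 126 genes called higher and blue points the 187 called lower; the lowest ratio, -2.23, belongs to Rps20 and the highest, 1.71, to Ldhd.

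The gene recovered most above total RNA was Ldhd, which encodes the mitochondrial D-lactate dehydrogenase. Its level was 129 and 126 CPM in the total RNA libraries and 448 and 391 CPM in the immunoprecipitates, a log2 ratio of 1.71 ± 0.13 (SE; adjusted p = 0.000193, edgeR). Both immunoprecipitates lay far above both total RNA libraries. Mospd3, which encodes a membrane protein with a major sperm protein domain, stood at 77.8 and 88.6 CPM in total RNA and 213 and 197 CPM in the immunoprecipitates (log2 ratio 1.29 ± 0.18, adjusted p = 0.00223). Its groups did not overlap either. Pttg1, the securin that guards chromosome separation, was also called higher at a log2 ratio of 1.08, as was Isoc2a, a protein with an isochorismatase domain, at 508 and 437 CPM in the immunoprecipitates over 245 and 227 CPM. Dgkd, a diacylglycerol kinase, had 0.94 and lost its call without library 19 (0.80), and the tyrosine kinase Ptk2b had 0.91 and lost it without any 1 library, at 0.84 to 1.04.

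A further group of strongly recovered mRNAs encodes enzymes that break down amino acids and aldehydes in mitochondria. Bcat2, the mitochondrial aminotransferase that starts the breakdown of branched-chain amino acids, had 343 and 278 CPM in total RNA, while the immunoprecipitates had 876 and 545 CPM (2.29-fold higher in the fit, adjusted p = 0.00783). The immunoprecipitates differed between themselves for this gene, and both were above the total RNA libraries. Aldh2, the mitochondrial aldehyde dehydrogenase, had 219 and 236 CPM against 502 and 520 CPM (log2 ratio 1.16 ± 0.13, adjusted p = 0.00074). Ivd, isovaleryl-CoA dehydrogenase of leucine breakdown, had 383 and 352 CPM against 799 and 729 CPM (log2 ratio 1.06 ± 0.13, adjusted p = 0.000875). For Aldh2 and Ivd the replicates of each group lay close together and the groups stood well apart. Of the 13 listed genes of 34 in the amino acid breakdown list, 6 were called higher and 0 lower, beside 10.6% and 15.7% of all genes, with a median log2 ratio of 0.49. Leaving out any 1 library left 4 to 6 of them called higher.

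In the list of the citric acid cycle and pyruvate use, 6 of 13 listed genes were called higher (10.6% of all genes) and 0 lower (15.7%), with a median log2 ratio of 0.50. Idh3b, a subunit of the NAD-dependent isocitrate dehydrogenase, had 1022 and 961 CPM in total RNA and 1886 and 1690 CPM in the immunoprecipitates, a log2 ratio of 0.85 ± 0.12 (adjusted p = 0.00187). Its groups were clearly separate. Others called higher included Fh1, Ogdh, Pdhx and Pcx, at log2 ratios of 0.55 to 0.78. The count rests in part on single libraries, since 1 gene was called without library 18, 4 without 23 and 2 without 24. Fh1 kept a log2 ratio of 0.79 without library 18 and 0.75 without 24, and Ogdh kept 0.60 without 18 and 0.62 without 23, where their calls were lost.

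Fatty acid oxidation showed a smaller shift, with 4 of 20 listed genes called higher (10.6% of all genes), 0 lower (15.7%) and a median log2 ratio of 0.22. Acadvl, the very-long-chain acyl-CoA dehydrogenase, rose from 2235 and 2200 CPM in total RNA to 3634 and 3763 CPM in the immunoprecipitates, with a log2 ratio of 0.74 ± 0.12 (adjusted p = 0.00303). The 2 libraries of each group were nearly equal. The others were Acads, Etfdh and Hadhb at log2 ratios of 0.54 to 0.59. Without library 18 or 24, Etfdh lost its call at 0.55 and 0.54, and Hadhb at 0.55 and 0.61, which left 2 genes of the list called, while upper-quartile scaling called 7.

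Among 30 listed genes for mitochondrial import and quality control, 8 were called higher (10.6% of all genes) and 2 lower (15.7%). Their median log2 ratio was 0.21. Mipep, the peptidase that trims imported precursors in the matrix, had 85.7 and 87.3 CPM in total RNA and 201 and 192 CPM in the immunoprecipitates (log2 ratio 1.18 ± 0.13, adjusted p = 0.000619). Trap1, the mitochondrial Hsp90 chaperone, had 113 ± 10.3 CPM in total RNA and 222 ± 21.5 CPM in the immunoprecipitates (mean ± SD, n = 2; log2 ratio 0.96 ± 0.14, adjusted p = 0.00241). Both genes had groups without overlap. Immt, an organiser of the inner-membrane cristae, had a log2 ratio of 0.82, and Lonp1, Timm10, Timm44, Tomm40 and Phb had ratios of 0.63 to 0.78. Both members called lower encode small proteins of the outer membrane channel and the cristae. Chchd6 had a log2 ratio of -0.72 and lost its call without library 18 (-0.57) or 24 (-0.61), and Tomm7 had -0.46 and lost it without any 1 library, at -0.38 to -0.46, and under upper-quartile scaling at -0.29. That scaling called 14 genes of the list higher and 1 lower.

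Cytosolic ribosomal protein mRNAs had the lowest median of the lists. All 20 listed genes of 85 in this list were called lower, against 15.7% of all genes tested, with a median log2 ratio of -1.29 and a range of -2.23 to -0.55. Leaving out any 1 library left 18 or 19 of the 20 called, and upper-quartile scaling left 18. Ribosomal protein genes have many near-identical copies in the genome, and how reads were shared among them is not given in the sources used here. Many ribosomal protein mRNAs begin with a run of pyrimidines, a 5′ terminal oligopyrimidine tract, that couples their translation to growth signals. Start regions in RefSeq (GRCm38.p6), from 10 bases before to 20 after the annotated start, were available for 14 of the 20 genes. The letters CTTTC occurred in 3 of the 14 (21.4%), against 4.43% of 27025 genes with such a region, 2.7% of 851 genes of the table, 3.97% of genes called lower and 2.41% of those called higher. On the other strand, GAAAG occurred in 0 of the 14 and in 4.31% of all genes. A match describes these 30 bases and marks no site. The 3 regions are shown 5′ to 3′ on the gene's strand with the match in capitals, for Rpl13a at chr7:45128726-45128755 (minus strand), Rplp2 at chr7:141447641-141447670 (plus strand) and Rps26 at chr10:128626487-128626516 (minus strand).
Rpl13a: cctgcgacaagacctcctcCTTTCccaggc
Rplp2: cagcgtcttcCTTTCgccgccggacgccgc
Rps26: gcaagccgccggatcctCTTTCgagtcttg
These 3 genes had log2 ratios of -1.32, -1.22 and -1.23, in the order shown and close to the median of the list.

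Rps20, a protein of the small ribosomal subunit, had the lowest ratio of all 1189 genes. Its level was 1626 and 1382 CPM in total RNA and 366 and 275 CPM in the immunoprecipitates (log2 ratio -2.23 ± 0.16, adjusted p = 0.000193). Rpl41, the shortest protein of the large subunit, had 1496 and 1297 CPM against 402 and 378 CPM (log2 ratio -1.84 ± 0.15, adjusted p = 0.000193). Both immunoprecipitates were far below both total RNA libraries for each gene. Rpl32, Rps15, Rps21, Rps14 and Rps24 followed at -1.42 to -1.81. At the other end of the list, Rpl8 fell by 0.68 on the log2 scale. Rpl13 (-0.70) lost its call without library 18 (-0.50), 23 (-0.77) or 24 (-0.57), and Rps3 (-0.55) lost it without 19 (-0.43), 23 (-0.42) or 24 (-0.61); both lost it under upper-quartile scaling, at -0.53 and -0.38.

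**Figure D2:**
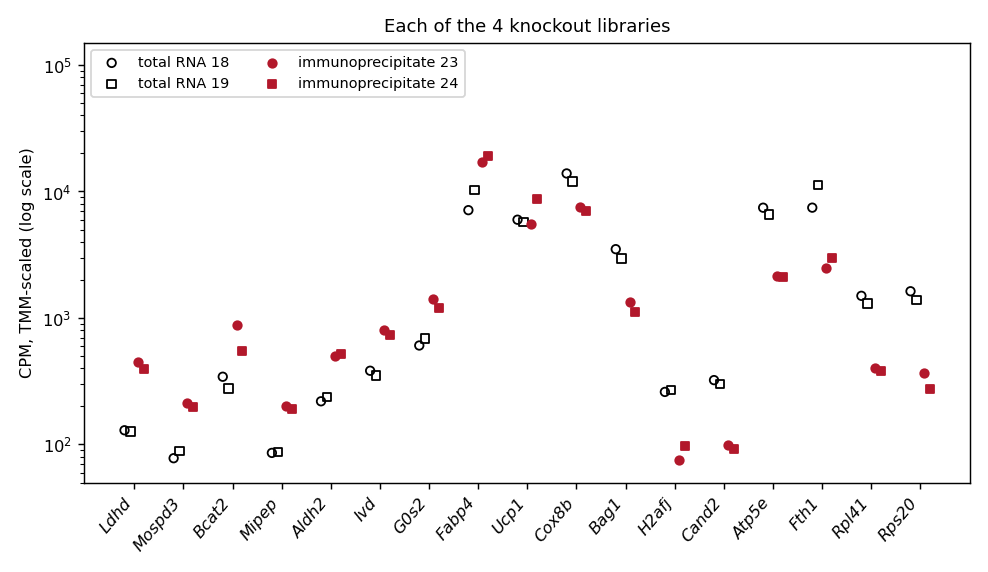
CPM on a log axis in each of the 4 knockout libraries for 17 genes, with open symbols for total RNA (circle 18, square 19) and filled symbols for the immunoprecipitates (circle 23, square 24). Genes from Ldhd to Fabp4 have both filled symbols above both open ones, those from Cox8b to Rps20 have them below, and the symbols of Ucp1 overlap.

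Other mRNAs of the translation machinery moved less uniformly. Of 17 listed translation factors 3 were called lower, near the 15.7% of all genes, and 0 higher (10.6%). Their median log2 ratio was -0.33. Eef1d and Eef1b2, subunits of the exchange factor that reloads elongation factor 1 with GTP, had ratios of -1.18 ± 0.19 and -1.01 ± 0.16. For Eef1d the levels were 984 and 744 CPM in total RNA and 414 and 349 CPM in the immunoprecipitates, with no overlap. Eif3k, a subunit of an initiation factor, had -0.57 and lost its call without library 18 (-0.39), 23 (-0.55) or 24 (-0.53). Without library 19 there were 5 translation factors called lower, and under upper-quartile scaling 3 were higher and 2 lower. The poly(A)-binding protein Pabpc1 stood at the top of the list with a ratio of 0.79 that did not pass the test. It was called higher under upper-quartile scaling (0.96), library size alone (0.92) and DESeq2 (0.80). The same held with the 4 knockout libraries alone (0.81) and with the matched libraries described below (0.77). Of the mitochondrial ribosomal proteins 2 of 47 were called higher and 8 lower, the latter near the 15.7% of all genes, with a median of -0.03, which was 0.13 under upper-quartile scaling, where 8 were higher and 7 lower. Among them Mrps24 (-1.08), Mrpl30 (-1.05) and Mrpl54 (-0.89) were lower in the immunoprecipitates and Mrpl4 (0.74) was higher. The other gene called higher, Mrpl9 (0.55), lost its call without any 1 library, at 0.53 to 0.62.

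The mRNAs of oxidative phosphorylation, the chain of complexes that uses fuel-derived electrons to pump protons and make ATP, were called lower more often than higher. Over all 66 listed genes 28 were lower and 5 higher, with a median log2 ratio of -0.38, while 15.7% of all genes tested were called lower and 10.6% higher. Without library 18, 19, 23 or 24 there were 13, 23, 14 and 12 lower and 1, 3, 3 and 1 higher, and upper-quartile scaling gave 21 and 9. The core subunits of complex I, which carry its electron path, had 3 of 5 called higher and 0 lower. Ndufs7 had 1087 and 1015 CPM in total RNA and 1956 and 1732 CPM in the immunoprecipitates (log2 ratio 0.81 ± 0.13, adjusted p = 0.00341), with separate groups. Ndufv1 had 0.58 and lost its call without library 18 (0.49) or 24 (0.48).

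The accessory subunits of complex I, most of them small proteins around the core, showed the opposite balance. Of 27 listed, 11 were called lower (15.7% of all genes) and 1 higher (10.6%), with a median log2 ratio of -0.37. Ndufc1 had 1149 and 1528 CPM in total RNA and 603 and 637 CPM in the immunoprecipitates (log2 ratio -1.11 ± 0.18, adjusted p = 0.00338). The immunoprecipitates lay close together, below both total RNA libraries. Ndufa2 and Ndufa3 were both at -1.14, and lost their calls without library 18 at -0.89 and -0.81 and without 24 at -0.99 and -0.95, Ndufa3 also without 23 at -1.29. The 1 gene called higher, Ndufa9, had 0.44 and lost its call without library 18 (0.35), 23 (0.55) or 24 (0.41). Without library 18, 23 or 24 the list had 7, 7 and 6 genes called lower, and upper-quartile scaling gave 10 lower and 4 higher.

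Complexes II to IV gave 9 of 23 listed genes lower (15.7% of all genes) and 1 higher (10.6%). Their median log2 ratio was -0.38. Cycs, the cytochrome c that shuttles electrons between complexes, had 586 and 665 CPM in total RNA and 348 and 325 CPM in the immunoprecipitates (log2 ratio -0.90 ± 0.16, adjusted p = 0.00581). Its groups did not overlap. Sdha, the flavoprotein of complex II, was the 1 gene called higher, at 0.49, and lost its call without library 18 (0.48), 19 (0.52) or 24 (0.46). Uqcrq of complex III had -0.86, with its call lost without library 18 (-0.72) or 24 (-0.80), and Cox7a2l, which helps complexes join into larger assemblies, had -0.98 and lost its call without any 1 library, at -0.86 to -1.07. Without library 18, 23 or 24, only 2, 3 and 2 genes of complexes II to IV were called lower, and upper-quartile scaling gave 6 lower and 2 higher.

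Of the 11 listed ATP synthase genes, 8 were called lower (15.7% of all genes) and 0 higher (10.6%). Their median log2 ratio was -0.60. Atp5e, the small epsilon subunit of the central stalk, had 7440 and 6550 CPM in total RNA and 2147 and 2089 CPM in the immunoprecipitates (log2 ratio -1.72 ± 0.14, adjusted p = 0.000193). Atp5o, a subunit of the outer stalk, had 2035 and 1883 CPM against 1029 and 1014 CPM (log2 ratio -0.94 ± 0.11, adjusted p = 0.000832). In both genes replicates were close and groups far apart. Atp5j2 followed at -0.93, whereas Atp5b, the catalytic beta subunit, had a ratio of 0.00. Leaving out library 18, 19, 23 or 24 left 4, 5, 4 and 4 genes called lower, and upper-quartile scaling left 5.

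**Figure D3:**
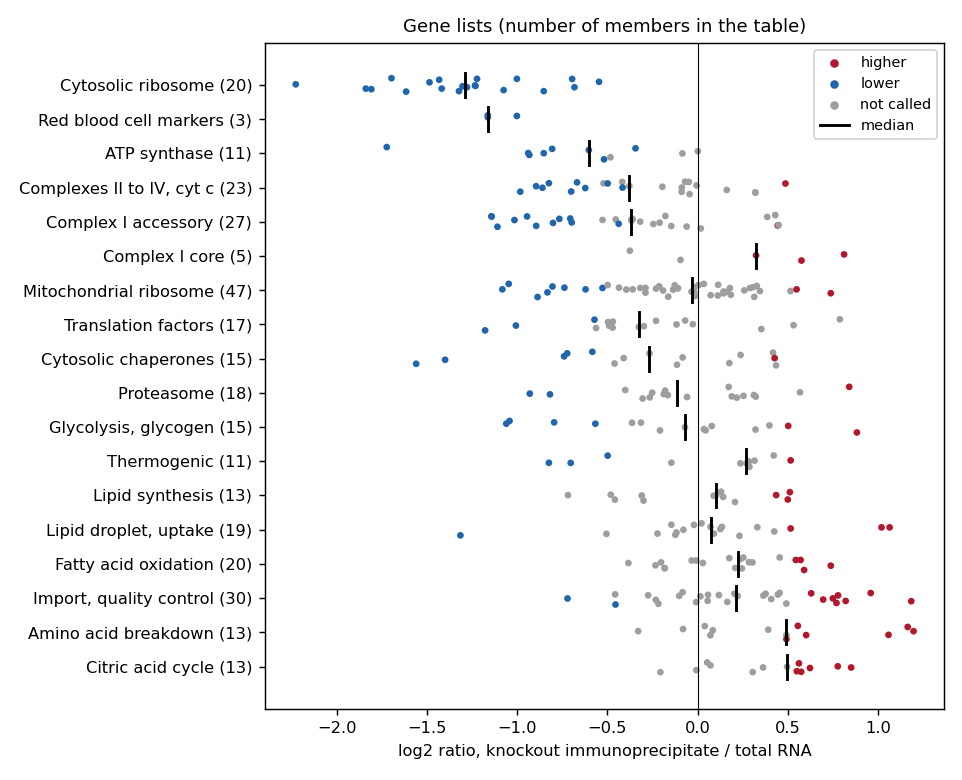
Each row is a gene list; points are the fitted log2 ratios of its listed members in knockout immunoprecipitate over knockout total RNA, coloured by call, with a bar at the median of the list. Cytosolic ribosomal proteins lie wholly below 0, and complex I accessory subunits, complexes II to IV and ATP synthase mostly below 0. Complex I core subunits have 3 of 5 above 0 (median 0.32), and the citric acid cycle and amino acid breakdown lists lie mostly above 0.

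Ucp1, the uncoupling protein, was not called. Its level was 5979 and 5758 CPM in total RNA and 5559 and 8734 CPM in the immunoprecipitates, a log2 ratio of 0.28 ± 0.27 (adjusted p = 0.464, edgeR). Library 23 was below both total RNA libraries and library 24 above both, so the groups overlapped. In the thermogenic list 1 of 11 listed genes was called higher (10.6% of all genes) and 3 lower (15.7%). Cox8b, the cytochrome oxidase subunit typical of brown fat and muscle, had 13879 and 12028 CPM against 7586 and 7040 CPM, a log2 ratio of -0.82 ± 0.17 (adjusted p = 0.00892) that lost its call without library 18 (-0.69), 23 (-0.83) or 24 (-0.75). Pank1, a kinase of coenzyme A synthesis, had -0.70, with its call lost without library 18 (-0.54) or 24 (-0.64). Plin5, a lipid droplet protein that contacts mitochondria, had 0.52, and Cox7a1 had -0.50. Plin5 lost its call without any 1 library, at 0.46 to 0.62, and Cox7a1 lost it without library 18 (-0.25), 23 (-0.51) or 24 (-0.42) and under upper-quartile scaling (-0.33). Without library 18 or 24 no gene of the thermogenic list was called, and upper-quartile scaling gave 2 higher and 2 lower.

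Lipid handling genes split by gene rather than as a group. Fabp4 had 7114 and 10247 CPM in total RNA and 17129 and 19174 CPM in the immunoprecipitates (log2 ratio 1.06 ± 0.23, adjusted p = 0.0127). G0s2, an inhibitor of the lipase that opens triglyceride breakdown, had 606 and 687 CPM against 1412 and 1208 CPM (log2 ratio 1.02 ± 0.21, adjusted p = 0.00971). Both genes had groups without overlap, but Fabp4 lost its call without library 18 (0.86) or 24 (adjusted p = 0.0615, with groups still 2-fold apart) and G0s2 without 18 (0.96). Apoc1, a small apolipoprotein, moved the other way, from 6465 and 4850 CPM to 2612 and 1933 CPM (log2 ratio -1.32 ± 0.21, adjusted p = 0.00303). Over the 19 listed genes of lipid droplets and uptake, 3 were higher and 1 lower, with a median of 0.07; without library 18 or 24 there were 0 and 1 higher. In lipid synthesis 3 of 13 were higher, Acacb (0.51), Acat2 (0.50) and Agpat6 (0.43), and 0 lower. For both lists the shares over all genes were 10.6% higher and 15.7% lower. Acacb lost its call without library 24 (0.45), and Acat2 and Agpat6 lost theirs without library 18 (0.50 and 0.45) or 24 (0.49 and 0.40).

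Of 15 listed glycolysis and glucose genes 2 were called higher and 4 lower, beside 10.6% and 15.7% of all genes. Pfkl, the liver-type phosphofructokinase that sets the pace of glycolysis, had 903 and 1000 CPM in total RNA and 1655 and 1855 CPM in the immunoprecipitates (log2 ratio 0.88 ± 0.10, adjusted p = 0.000875). Tpi1, the triosephosphate isomerase, had 3179 and 2746 CPM against 1497 and 1377 CPM (log2 ratio -1.04 ± 0.18, adjusted p = 0.00429). The groups stood apart in opposite directions for this pair. Pgls of the pentose phosphate pathway had -1.06 and Gpi1 had -0.57. Aldoa had -0.80 and lost its call without library 19 (-0.57) or 23 (-0.54), and Gys1, glycogen synthase, had 0.50 and lost its call without any 1 library, at 0.50 to 0.56. Without library 23 the list had 2 genes called lower.

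Other strongly depleted mRNAs belonged to none of these pathways. Over all genes, 15.7% were called lower and 10.6% higher, to set beside the list counts below. Fth1, the ferritin heavy chain that stores iron, had 7447 and 11205 CPM in total RNA and 2493 and 2981 CPM in the immunoprecipitates (log2 ratio -1.77 ± 0.34, adjusted p = 0.00743). Ftl1, the light chain, had 892 and 1030 CPM against 419 and 420 CPM (log2 ratio -1.20 ± 0.20, adjusted p = 0.00429). Both ferritin chains were below total RNA in both immunoprecipitates, and they were the only 2 of 17 listed iron and antioxidant genes called lower. The 1 called higher, Gstm1 (0.54), a glutathione transferase, lost its call without library 18 (0.54) or 23 (0.46). Bag1, a co-chaperone of Hsp70, had 3497 and 2956 CPM against 1331 and 1114 CPM (log2 ratio -1.40 ± 0.13, adjusted p = 0.000296). Cand2, an exchange factor of ubiquitin ligases, had 323 and 300 CPM against 98.4 and 92.6 CPM (log2 ratio -1.70 ± 0.19, adjusted p = 0.000626). H2afj, a replication-independent histone H2A variant, had 260 and 270 CPM against 75.5 and 96.6 CPM (log2 ratio -1.63 ± 0.15, adjusted p = 0.000257). None of the 3 had overlapping groups. Among cytosolic chaperones 5 of 15 were lower, led by the prefoldin subunit Pfdn5 (-1.56), and 1 was higher; without library 18, 23 or 24 there were 2, 3 and 2 lower and 0 higher, and upper-quartile scaling gave 2 lower and 2 higher.

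Smaller groups gave few calls, beside 10.6% of all genes called higher and 15.7% lower. Of 18 proteasome genes 1 was higher and 2 lower; Psmd3, a subunit of the regulatory lid, had 0.84, and Psmc1, an ATPase of its base, had -0.93 with its call lost without library 18 (-0.61) or 24 (-0.82). Psmd4, the ubiquitin receptor, had -0.82 and lost its call without library 18 (-0.50), 23 (-0.91) or 24 (-0.67). Upper-quartile scaling called 3 proteasome genes higher and 2 lower. Cfl1, the actin-severing protein cofilin, had 156 and 218 CPM in total RNA and 363 and 395 CPM in the immunoprecipitates (log2 ratio 1.01 ± 0.17, adjusted p = 0.00379), with separate groups. The mitochondrial carriers had 0 of 8 called in either direction, whereas upper-quartile scaling called 3 higher, library size alone 2 higher and a fit that matches library 18 with 23 and 19 with 24 called 3 higher and 1 lower. Of 5 listed very long mRNAs none was called.

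Markers of other cell types were few in the table. The 9 listed skeletal muscle markers, of 37, had 0 calls and a median log2 ratio of -0.62, with summed levels of 1059 and 2978 CPM in total RNA and 835 and 1863 CPM in the immunoprecipitates. All 3 listed red blood cell markers, of 9, were called lower, beside 15.7% of all genes. However, 2 of them have identical counts and are 1 measurement. Taking identical counts once, their summed level was 3724 and 2876 CPM in total RNA, and 1887 and 1306 CPM in the immunoprecipitates. Without library 18 or 24, 1 of the 3 was called. None of these markers was at 0 in any library, but neither was any other listed transcript. Being above 0 therefore does not set these markers apart from other listed genes. It shows RNA of these genes in the libraries, but not from which cells that RNA came. The part of muscle or red blood cells in the results above was not tested. Of 25 endothelial and mural markers 3 were listed, with a median of -0.03. Cspg4 had 0.40 and lost its call without any 1 library, at 0.38 to 0.50, Des had -0.03, and Egfl7 had -0.48, with both immunoprecipitates below both total RNA libraries and no call.

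The replicate libraries differed in ways that were shared between total RNA and immunoprecipitate. Across the 1189 genes, the difference of library 19 from 18 and that of 24 from 23 had a Pearson r of 0.802 and a Spearman rho of 0.670, given as a description across genes, which are not independent. In both pairs 14 genes differed over 2-fold the same way, 11 of them higher in 19 and 24. Dio2, the deiodinase that makes active thyroid hormone in cold brown fat, had 58.3 and 523 CPM in total RNA and 90.1 and 697 CPM in the immunoprecipitates. Acta1, the actin of skeletal muscle, had 129 and 533 CPM against 38.3 and 136 CPM. Each gene was higher in libraries 19 and 24 than in their partners. Fasn, the fatty acid synthase, had 28005 and 54736 CPM against 21681 and 45529 CPM. Acly, which makes cytosolic acetyl-CoA, had 2357 and 4637 CPM against 1423 and 2829 CPM. For Fasn and Acly too, 19 and 24 were the higher libraries, and none of these 4 genes was called between immunoprecipitate and total RNA without the match described next. The 13 lipid synthesis genes had a median log2 difference of 0.54 in total RNA and 0.52 in the immunoprecipitates, and the 9 muscle markers 2.08 and 1.85. No label ties an immunoprecipitate to a total RNA library, and whether 18 and 23, or 19 and 24, share an animal was not tested. That match was fitted as a block, and wild-type libraries 16 with 21 and 17 with 22 were matched likewise, all chosen after seeing the data. The matched fit had 2 residual degrees of freedom, against 4 in the main fit. It called 338 genes higher and 348 lower, and all 313 calls of the main fit were also made. In that fit Acta1 (-1.89), Acly (-0.72) and Fasn (-0.32) were called lower and Dio2 (0.48) higher, and 5 of the 9 muscle markers were called lower.

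**Figure D4:**
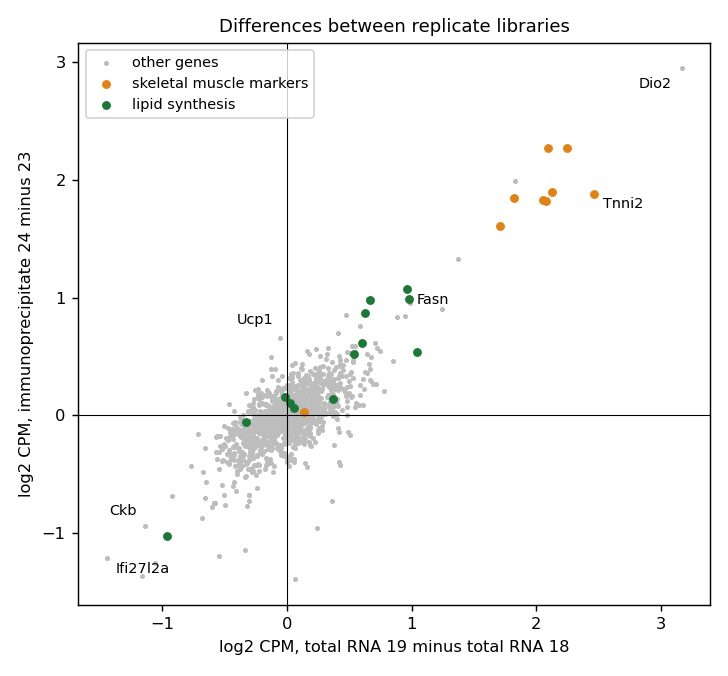
Each point is a gene, with its log2 CPM difference between total RNA libraries 19 and 18 on the horizontal axis and between immunoprecipitates 24 and 23 on the vertical axis. Skeletal muscle markers (orange) and lipid synthesis genes (green) lie mostly to the upper right, with medians of 2.08 and 1.85 and of 0.54 and 0.52, and Dio2 lies at the far corner.

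Recovery in the knockout varied with the span of the gene's locus. In 4 equal groups of 1188 genes ordered by the span of the locus in RefSeq (GRCm38.p6), introns included, the median log2 ratio was -0.10, -0.04, -0.00 and 0.07 from the shortest to the longest loci. The share called lower was 27.3, 17.8, 11.4 and 6.4%, and the share called higher was 6.73, 7.07, 12.8 and 15.8%. Longer loci thus had fewer genes called lower and more called higher in the knockout, with a Spearman rho of 0.200 across genes. In the same order, the wild-type medians were 0.004, 0.039, 0.004 and -0.003, which did not rise. The IgG medians were -0.21, -0.03, 0.06 and 0.17. These differences were not tested. The span of a locus is not the length of its mRNA, and mRNA lengths were not used here.

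Recovery from wild-type tissue ran in the same direction for nearly all called genes, which for the higher ones the listing fixed in advance. The wild-type ratio had the same sign in 126 of the 126 higher genes and 186 of the 187 lower ones. Its medians were 0.57 and -0.66. The lowest knockout ratio called higher was 0.32, and no listed knockout ratio exceeds the wild-type one by more than 0.30. The 126 of 126 is therefore no separate result. A test of the difference between the knockout and wild-type ratios called 0 of 1189 genes (0%) in edgeR, and 0 in DESeq2 and limma-voom. Genes at an unadjusted p under 0.05 numbered 29, 42 and 29 in that order. All 29 in edgeR had a lower ratio in the knockout than in the wild type. Ldhd had a wild-type ratio of 1.76 and Rps20 one of -2.23. Among the wider gaps were those of H2afj, with -1.63 in the knockout and -0.83 in the wild type, and Mrpl54, with -0.89 and -0.25. Neither gap passed the test. This comparison is limited by the listing, since the knockout ratio of a listed gene exceeds the wild-type ratio by at most 0.30 and falls below it by up to 0.81 on the log2 scale, so genes with larger differences in favour of the knockout are not in the table.

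The IgG immunoprecipitate gave another background, from wild-type tissue, in 1 library and with no test. Its ratio to total RNA had the same sign as the knockout ratio in 120 of the 126 higher genes and 172 of the 187 lower ones, and was above 0 in 598 of all 1189. At least a 2-fold difference with IgG was reached by 32 genes (2.69%) upwards and 66 (5.55%) downwards. Ldhd had an IgG log2 ratio of 1.46, Aldh2 one of 1.83, Fth1 one of -2.36 and Rps20 one of -1.53. The clearest exception was Mospd3, with 67.1 and 61.7 CPM in the wild-type total RNA libraries, 35.3 CPM with IgG and 279 CPM in the IMP2 immunoprecipitate of that table. With the IMP2 antibody Mospd3 was above total RNA in every library, knockout included, and with IgG it was below. Bag1 was depleted with the IMP2 antibody in the knockout (-1.40) and in wild-type library 25 (-1.16), while its IgG ratio was -0.19. Macf1, a giant cytoskeletal linker, had 245 and 246 CPM in wild-type total RNA and 1044 CPM with IgG, a log2 ratio of 2.09, against 0.36 in the knockout immunoprecipitate, where it was not called. These differences between the backgrounds were not tested.

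**Figure D5:**
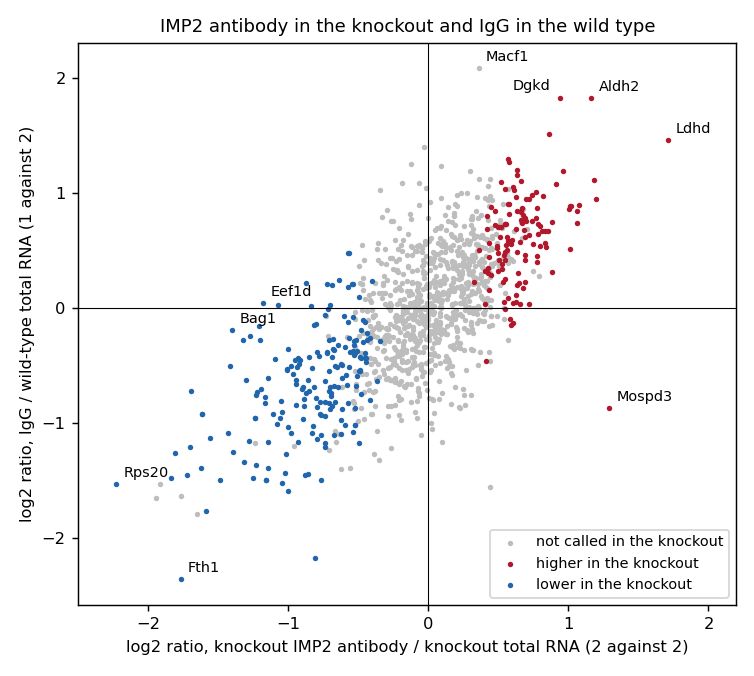
Each point is 1 of 1189 genes, with the log2 ratio of knockout immunoprecipitate to knockout total RNA on the horizontal axis and that of the single IgG library to wild-type total RNA on the vertical axis. Most called genes share the sign of both ratios; Mospd3, at 1.29 and -0.87, lies apart from the other genes called higher.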

How the data were processed

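RNA from mouse brown fat was sequenced as total RNA or after immunoprecipitation. The authors deposited whole-number counts per RefSeq transcript, with no scaling, in separately listed tables. TopHat2 2.0.8, Cufflinks 2.1.1 and mm10 are named in the submitters' processing notes; the sources used here do not say how transcripts were counted, annotated and chosen for listing. The library kit named in the labels marks no strand, so overlapping and antisense genes cannot be told apart.

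Of 1579 transcripts, 117 had no symbol; 114 were named by accession in a RefSeq table and 3 were left out of library sizes and tests. These 3 took 8.65 to 12.7% of the counts of the 4 knockout libraries. The transcript with the highest summed count represented each gene, and 8 of 1189 genes had counts identical to another's. Counts of 8 libraries in 4 groups were scaled by TMM and fitted in edgeR 4.0.16 (R 4.3.3), with its quasi-likelihood test and Benjamini-Hochberg adjustment over 1189 genes at 0.05. The fit had 4 residual degrees of freedom and a biological coefficient of variation of 15.3%. The low-count filter of edgeR removed 0 genes. Tests stayed within a table, and IgG ratios are CPM of 1 library over the mean of 2.

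On simulated counts for this comparison, run on 1189 genes, a log2 change of 1 was called in 94% of 100 genes. One of 0.5 was called in 27% of 100, and 2 of 989 unchanged genes were called. The simulation gave all genes the same biological coefficient of variation and let libraries vary independently. In the data, deviations were shared between libraries.

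Genes were named by a rule: Ucp1 and the Igf2bp genes where listed, the 15 largest called rises and falls without overlap, the 10 genes with the highest mean CPM, and up to 3 members at each end of every list described. Members called in short lists, Dio2, Acta1, Fasn, Acly and Macf1 were also chosen after their values were seen, and some genes are not reported here. The members and gene lists were chosen with earlier results of these data known. Alternatives were 3 other scalings, DESeq2 1.42.0, limma-voom (limma 3.58.1), other filters, a test against 1.2-fold, summed transcripts, fewer libraries and a matched fit. A description by protein length was planned and not run, and the span of the locus was used instead.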

Additional observations from a re-analysis of the deposited data

Results flagged for a closer look

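Among the named genes that were called, 4 had an IgG ratio on the opposite side of 0 from every knockout library with the IMP2 antibody, with the single IgG library outside the range of both wild-type total RNA libraries. Mospd3 was higher in both knockout immunoprecipitates and had an IgG log2 ratio of -0.87. Hadhb and Plbd2 were called higher in the knockout, at log2 ratios of 0.59 and 0.41, and had IgG ratios of -0.14 and -0.46. Eef1d was called lower at -1.18 and had an IgG ratio of 0.048. The IgG level of Eef1d was 1149 CPM, beside 1098 and 1124 CPM in wild-type total RNA. That of Hadhb was 736 CPM, beside 882 and 745 CPM. Both IgG levels lay only just outside the range of total RNA. The call of Plbd2 was lost without any 1 library, and that of Hadhb without library 18 or 24. The differences between the antibodies were not tested, since the IgG group has 1 library.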

How the results depend on the processing

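Beside 126 higher and 187 lower genes, upper-quartile scaling called 273 higher, library size alone 246 higher, DESeq2 220 higher, the test against a 1.2-fold change 53 higher and 120 lower, and the matched libraries, chosen after seeing the data, 338 higher and 348 lower. Leaving out 1 library at a time gave 47 to 81 higher and 87 to 155 lower. The causes were not tested, except that fewer libraries leave fewer residual degrees of freedom and a test against 1.2-fold asks for a larger change. The other alternatives gave counts within 1.5 times those above. Of 91 named genes that were called, 64 kept their call under every alternative other than leaving out a library and 47 in every fit that left out 1 library, and 0 changed sign in any. The test of the knockout against the wild-type ratio called 0 genes in each fit in which it was made. Upper-quartile scaling moves ratios up by about 0.17, which turns the medians of mitochondrial ribosomal proteins (0.13), proteasome (0.05), glycolysis (0.10), iron and antioxidant genes (0.10), histones (0.08), small ubiquitin genes (0.14) and endothelial and mural markers (0.14) above 0. From the labels, no paired analysis was possible because they give the groups no shared replicate numbers, and the matched libraries rest on deviations seen in the data. With 2 libraries a group, the main fit called some genes with a log2 ratio near 0.5 and left others uncalled. Gys1 (0.50) and Cox7a1 (-0.50) were called, while Cfd (0.51) and Cox4i1 (-0.52) were not. A gene that was not called may therefore still differ, and how often this happened in these data was not tested.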
